A study of Cervus nippon with 40 samples.

Results

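The imprinted DLK1-DIO3 locus carries one of the largest groups of miRNA genes in placental mammals. Its miRNAs are made from the maternally inherited chromosome, as parts of long noncoding transcripts, and are known for high levels in brain and in some endocrine tissues. Members were all listed names whose cattle miRNA number belongs to this locus, with miR-409 set aside. A total of 27 such names were found among the 500 names listed in the series, which include numbered predicted miRNAs. The rule itself uses names only, but it was drawn up with earlier results of these data known.

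The libraries came from male Sika Deer of the Shuangyang breed, and no deer carried a treatment or an altered gene. Small RNA was sequenced from 10 organs (brain, adrenal, antler, testes, spleen, heart, skeletal muscle, liver, lung and kidney) at 4 stages. Deer were 1 year old at the juvenile stage, 3 years old at adolescence, 5 years old as adults and 10 years old when aged. Every one of the 40 libraries pooled RNA from 3 deer, and the 10 organ libraries of a stage came from the same deer of 12 in all. An organ thus had 4 libraries that differed in stage, and the spread between single deer was not measured.

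Depth ran from 41866 miRNA reads in the aged testes to 7759033 in the juvenile muscle, with a median of 744715. Values were reads scaled to a total of 1000000 miRNA reads (RPM), so 1 read stood for 0.129 to 23.9 RPM. The members took 30964 of 52444509 reads, or 0.0590%.

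The labels of the organs were checked against lists of miRNAs known to mark them, and some lists did not set their organ apart. The neuronal miR-124a stood at 57640, 2446, 31967 and 37110 RPM in the juvenile, adolescence, adult and aged brain, and at most at 358 RPM in any other organ. miR-208a, which is encoded in a heart myosin gene, was listed in the 4 heart libraries and in no other organ. Other markers told less. miR-192 had medians of 158044 RPM in kidney and 157964 RPM in liver, and the blood marker miR-451 had 2 reads in spleen. miR-202, listed for germ and Sertoli cells, had 8 reads in testes, with 0 RPM in the adult and aged libraries. Over the known miRNAs tested, 6 members and 118 others, 37 libraries were most like a library of their own organ, and 3 were not. The adolescence lung and the aged spleen were most like each other (r = 0.95), and the juvenile testes were most like the juvenile adrenal (r = 0.92). The aged spleen also held 52057 RPM of the muscle miRNA miR-1, against at most 7564 RPM in the other spleen libraries. The adolescence testes, though most like the adult testes, held 48579 RPM of miR-1, against at most 13997 RPM in the other testes libraries. Values without the adolescence lung, aged spleen and juvenile testes are given below for the main results.

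Of the 44 numbers that define the group, 23 had a listed name and 21 had none. Those not listed included miR-127, miR-379 and miR-382. Of the 27 members, 16 had under 10 reads in all libraries together, 4 had a single read, and the median was 7 reads. miR-433 alone gave 27918 reads, or 90.2% of all reads of the members, and was followed by miR-431 with 1522 reads (4.92%) and miR-493 with 587 (1.90%). miR-134 had 291 reads, miR-412 had 269 and miR-541 had 171.

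The other 21 members together were close to the limit of detection. miR-1185 had 38 reads in 12 libraries, miR-544a had 37 in 8, miR-376e had 35 in 17, miR-485 had 17 in 9 and miR-665 had 13 in 8. Of the reads of miR-544a, 26 came from the adolescence adrenal. miR-329a and miR-377 had 8 reads each, miR-376d had 7, and miR-376a and miR-376b had 6 each. miR-380-3p, miR-410 and miR-494 had 5 reads each, miR-369-3p had 4, miR-136 and miR-496 had 3 each, and miR-544b had 2. miR-370, miR-381, miR-495 and miR-539 had 1 read each. miR-376a and miR-376b had equal reads in all 40 libraries, and miR-376d equalled them in 39, so these names may have shared reads. Counts of members below still take them as separate names.

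**Figure D1:**
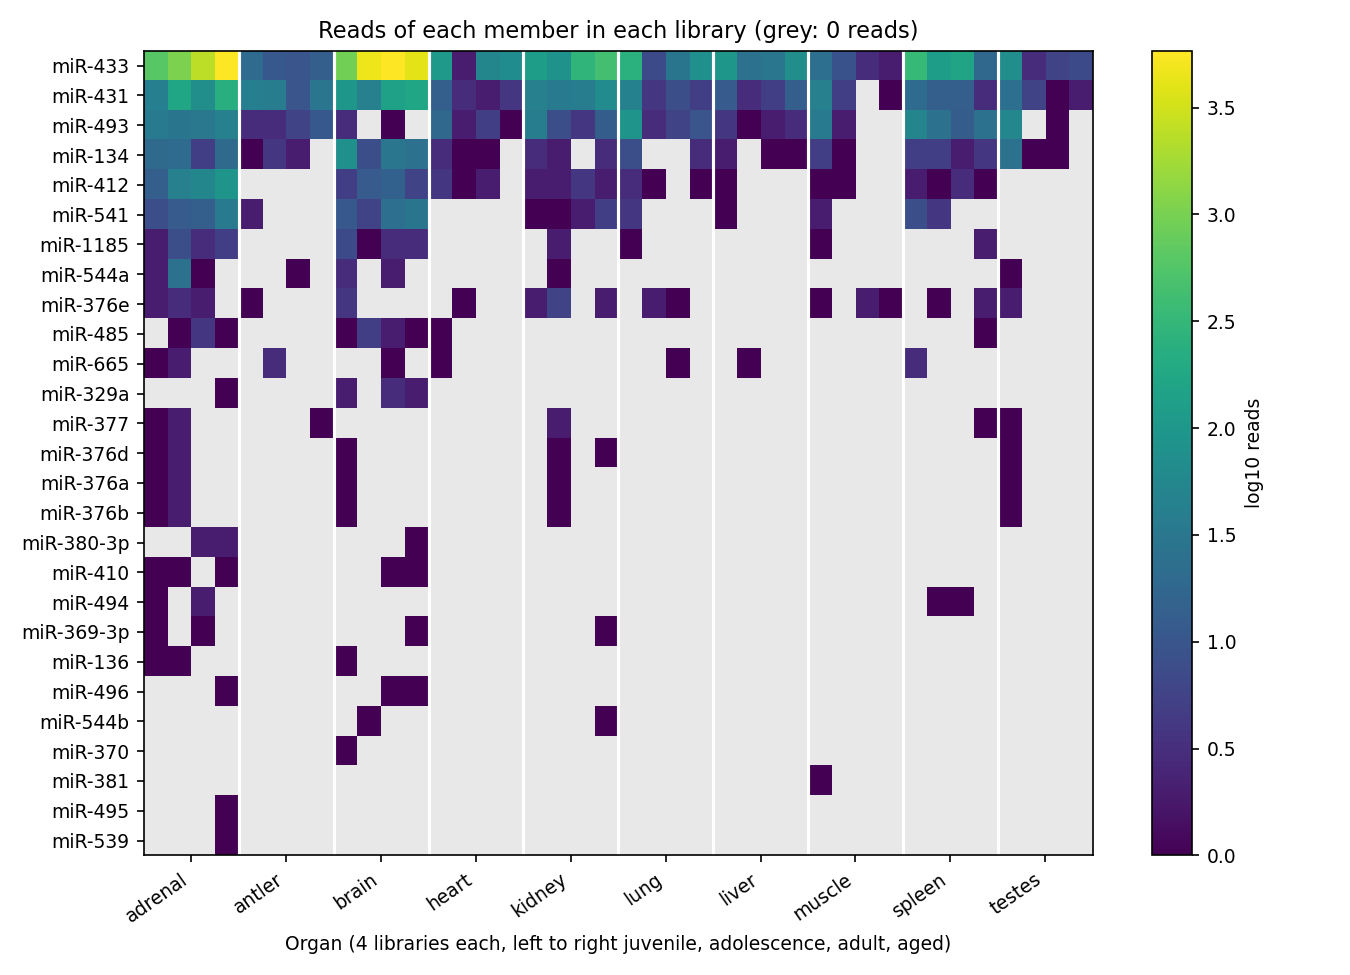
Reads of the 27 members (rows, by total reads) in the 40 libraries (columns, by organ and, within an organ, by stage), on a log10 colour scale with 0 reads in grey. The upper 6 rows hold the members that could be tested, and most lower rows have reads mainly in adrenal and brain.

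In the human locus the miRNA genes lie in 2 groups, the first around the antisense transcript of RTL1 and the second from miR-379 to miR-656. By that map 6 members belonged to the first group, and they gave 30044 reads. The 21 members of the second group gave 920 reads, or 2.97%. The share of the second group was 1.82% in brain and 3.89% in adrenal. It was 16.4% in testes, where 33 of 35 reads came from the juvenile library, and 7.14% (2 of 28 reads) without that library. In muscle it was 11.3% (16 of 141 reads). The place of these genes in the deer genome was not analysed here.

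The most members were listed in adrenal and brain. With at least 1 read over 4 libraries, 24 of 27 members were present in adrenal (88.9%) and 22 in brain (81.5%), against 68.0% and 64.1% of all known miRNA names. The known names include 31 listed in antler alone, which lowers their share in every other organ and widens these gaps. miR-376a, miR-376b and miR-376d, which may share reads, are each counted in adrenal, brain, kidney and testes. The counts of members in these organs may thus be too high. Kidney held 15 members, spleen 12, testes 10, antler, lung and muscle 9 each, heart 8 and liver 7. Without the juvenile testes 4 members were present in testes, and without the aged spleen 9 in spleen. In liver this was 25.9% of the members, against 55.2% of all known names. Muscle had the deepest libraries, with at least 5452979 reads each, and testes had the shallowest. When each library was scaled down to the smallest depth, 5.65 to 6.58 members were expected with a read in an adrenal library, 4.12 to 4.79 in a brain library, 3.07 to 4.55 in a kidney library, 2.0 to 4.26 in a testes library and 0.0277 to 0.565 in a muscle library. Brain thus overlapped kidney. It overlapped testes through the juvenile library alone, and the other testes libraries gave 2.0 to 2.57. With at least 10 reads over 4 libraries 8 members were present in adrenal, 6 in brain, 5 each in kidney and spleen, 4 each in lung and testes, and 3 in each of the other organs. Without the juvenile testes the count in testes was 1. The scaling to the smallest depth was added after the data had been seen. Neither it nor the count at 10 reads was made for all known names, so these counts are not read as results about the members. In muscle over 91% of the reads were miR-1, which at the smallest depth leaves few reads for any other miRNA.

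The share of miRNA reads that the members took was highest in brain and adrenal. It was 0.0972%, 1.29%, 0.759% and 0.471% in the juvenile, adolescence, adult and aged brain. In the same order it was 0.121%, 0.160%, 0.441% and 0.655% in adrenal. The ranges of these organs overlapped. Kidney followed at 0.0398% to 0.102%, which overlapped the juvenile brain. Most of the share was miR-433. Without it the medians were 0.0350% in adrenal, 0.0232% in brain, 0.0156% in kidney and 0.0143% in antler, so that adrenal came before brain, and at most 0.00771% in the other organs. The ranges overlapped, at 0.0215% to 0.0466% in adrenal, 0.0186% to 0.0280% in brain and 0.0109% to 0.0276% in kidney. The juvenile antler (0.0228%), adolescence antler (0.0229%) and juvenile testes (0.0209%) lay within the range of brain. With miR-433 counted, the lowest share was in the aged muscle, with 4 reads and 6.6e-05% (exact 95% binomial interval 1.8e-05% to 0.00017%). Intervals cover counting error only. In muscle miR-1 took over 91% of the reads, and without miR-1 in the base the median share in muscle was 0.00255% in place of 0.000204%. Since these were whole organs, fewer cells that carry a miRNA and less of it per cell cannot be told apart.

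**Figure D2:**
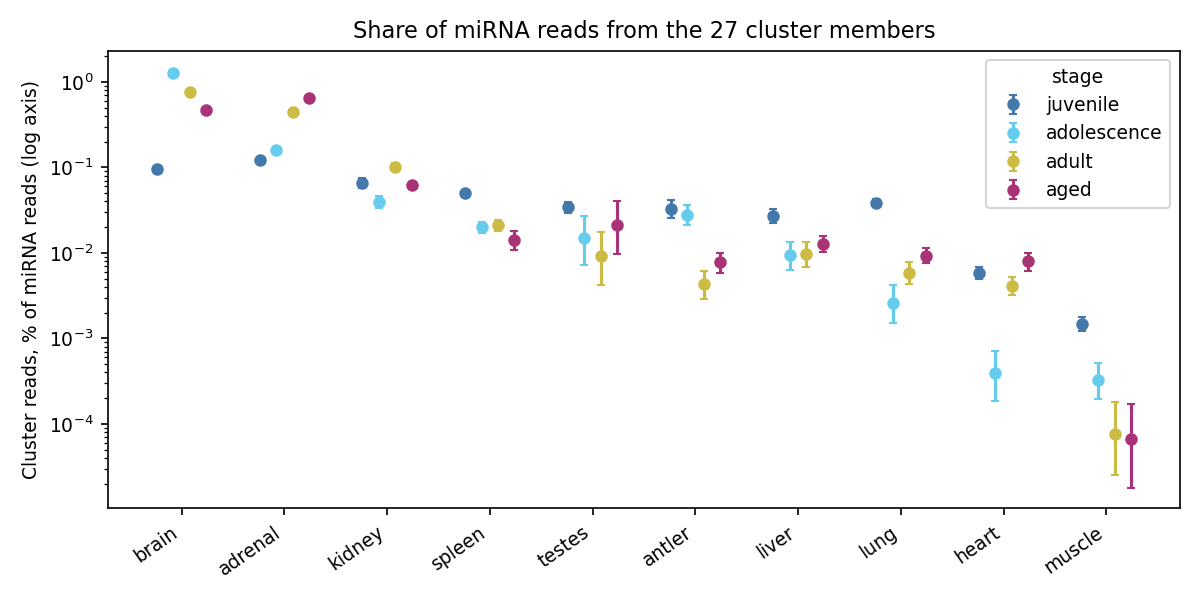
Share of miRNA reads from the 27 members (percent, log axis) in each library, by organ in order of the median, coloured by stage, with exact 95% binomial intervals. Brain spans 0.0972% to 1.29%, adrenal 0.121% to 0.655%, and muscle lies lowest.

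A total of 6 members had at least 10 reads in at least 4 libraries and entered the test. For miR-412 and miR-541 all such libraries were of brain or adrenal (6 each), and for miR-134 they were 6 of brain and adrenal and the juvenile testes. These members passed through the organs where they are high and had to differ, so their number of calls supports nothing. miR-433 passed with 24 libraries outside brain and adrenal, miR-431 with 17 and miR-493 with 12. In the shallow adolescence, adult and aged testes, 0 reads of a member allow up to 44.6, 30.9 and 71.7 RPM, so a 0 in a single one of these libraries sets no order against other organs.

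miR-433, a member of the first group that is known to act on FGF20, was the most abundant. In brain it had 785, 12686, 7308 and 4450 RPM from the juvenile to the aged library, and in adrenal 994, 1225, 4093 and 6084 RPM. The highest value in any other organ was 877 RPM in the adult kidney, so 7 of the 8 brain and adrenal libraries lay above all others and the juvenile brain lay below that kidney library. Kidney had a median of 446 RPM, spleen 157, testes 99.1, liver 90.9, lung 56.3, heart 38.5 and antler 35.4. The range of kidney lay below that of adrenal and overlapped that of brain, and from kidney to antler the ranges of neighbours overlapped. Muscle was lowest at 3.09, 1.65, 0.462 and 0.332 RPM, and overlapped only the adolescence heart (0.781 RPM).

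The adolescence brain had the highest miR-433 of all libraries and the lowest miR-124a of the brain libraries, while the juvenile brain had the lowest miR-433 and the highest miR-124a of the 4. The part of cell makeup in this was not tested. In adrenal the summed level of the neural markers (4 of 5 listed, miR-124a the most abundant, miR-9 not listed) was 8.36 to 73.6 RPM, against 2465 to 57650 RPM in brain.

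miR-431, also of the first group and known from nerve and muscle development, had 84.5, 117, 177 and 181 RPM in brain and 67.0, 198, 122.1 and 251 RPM in adrenal. It was not set apart in these organs, since antler reached 196 RPM in the juvenile library and kidney had a median of 104 RPM. Antler fell into 2 high libraries, juvenile and adolescence (196 and 182 RPM), and 2 low ones, adult and aged (14.8 and 41.5 RPM). In antler miR-431 had 121 reads and miR-433 had 56, whereas in brain miR-431 had 2.89% of the reads of miR-433. By RPM muscle was lowest at 5.54, 0.917, 0 and 0.166, and heart, at 5.42, 1.17, 1.32 and 4.42 RPM, overlapped it. On the scale of the test below heart was lowest, with mean log2 levels of 2.607 in heart, 3.073 in liver and 3.295 in muscle.

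miR-493 had another distribution. It stood at 57.5, 33.9, 53.5 and 46.0 RPM in adrenal, but had only 4 reads in brain, with 2.59, 0, 1.25 and 0 RPM. Spleen (61.2, 29.2, 14.3 and 62.3 RPM) overlapped adrenal. The highest libraries were the juvenile kidney (121 RPM), the juvenile testes (103 RPM) and the juvenile lung (85.1 RPM), while the later kidney and lung libraries were at or below 21.8 RPM. The adult testes had 10.3 RPM from 1 read, and the adolescence and aged testes had none. In the adolescence brain miR-493 had no read, which allows up to 8.14 RPM at that depth.

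miR-134, a neuronal miRNA known to limit the size of dendritic spines, had 66.4, 21.7, 37.5 and 27.1 RPM in brain and 31.9, 24.5, 8.36 and 21.4 RPM in adrenal. The juvenile testes had 48.5 RPM, within the range of brain. Other organs were at or below 18.7 RPM.

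miR-412 and miR-541 lie close together near the end of the second group. miR-412 was highest in adrenal at 22.3, 51.4, 88.6 and 94.1 RPM, followed by brain at 4.31, 32.6, 18.8 and 6.51 RPM. The highest value elsewhere was 12.1 RPM in the adult kidney. miR-541 had 12.8, 14.02, 23.4 and 39.6 RPM in adrenal and 9.48, 16.3, 30.0 and 31.4 RPM in brain. The highest value elsewhere was 9.41 RPM in the juvenile spleen, close to the juvenile brain. Testes had no read of either miRNA, which over the 4 libraries allows up to 4.04 RPM and in the juvenile testes alone up to 5.60 RPM. The adrenal values of both and the brain values of miR-541 lay above these limits, and the juvenile brain value of miR-412 did not lie above the second.

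**Figure D3:**
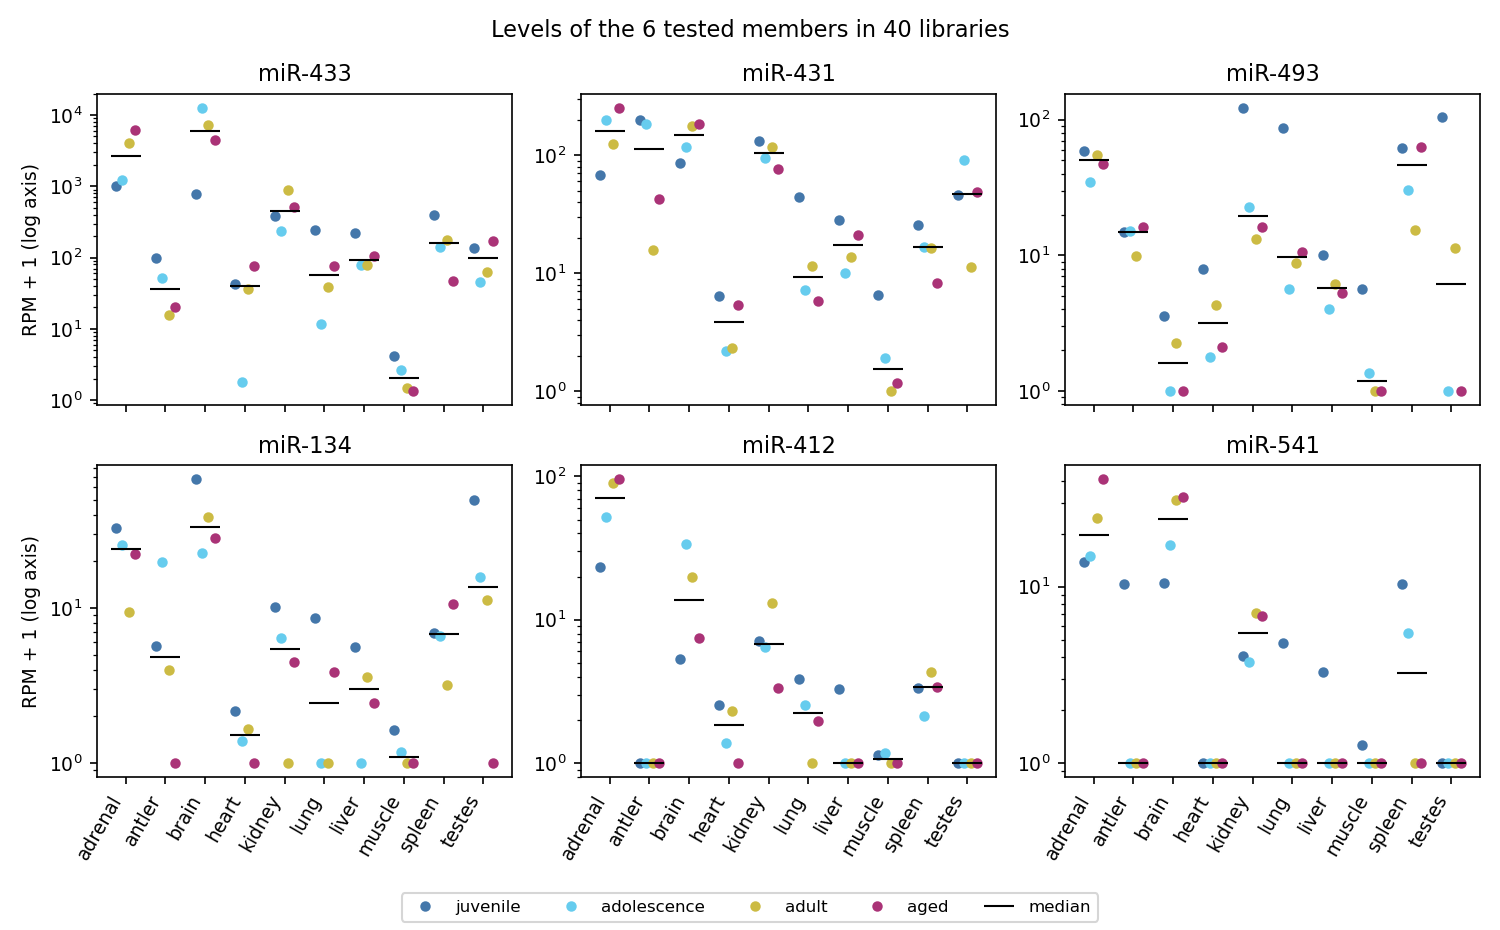
Levels of the 6 tested members in the 40 libraries (RPM + 1, log axis), by organ and coloured by stage, with a bar at the median of each organ. miR-433, miR-412 and miR-541 are highest in brain and adrenal, and miR-493 is near 0 in brain.

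Each organ was then compared with the mean of the other 9 by limma, on values of log2(RPM + 1) scaled by TMM, which sets libraries on a common scale by the bulk of their miRNAs. A miRNA was called at an adjusted p below 0.01 and an absolute log2 difference above 1. The differences below are on this scale and understate those of low miRNAs.

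In brain 5 of the 6 members were higher, where 19.4% of all tested miRNAs were, and 1 was lower, where 21.0% were. The median difference was 3.10 for the members and -0.03 for all tested miRNAs, but miR-412, miR-541 and miR-134 had entered mainly through brain and adrenal, so the median supports nothing. miR-433 rose most (log2 difference 5.83, SE 0.65, adjusted p = 1.68e-09). Its difference was 6.87 without the juvenile brain and 4.84 without the adolescence brain. miR-541 was higher by 3.41, miR-134 by 3.34, miR-431 by 2.85 and miR-412 by 2.34. miR-493 was lower (log2 difference -2.58, SE 0.61, adjusted p = 0.000525). With a pseudocount of 10 RPM miR-412 was at 0.87 and no longer called in brain.

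In adrenal 3 members were higher, against 7.26% of all tested miRNAs, and none was lower. These were miR-433 (log2 difference 3.79, SE 0.65, adjusted p = 1.65e-05), miR-412 (3.66) and miR-541 (2.44). miR-412 and miR-541 had entered through brain and adrenal alone, so the number of calls supports nothing. miR-431, miR-493 and miR-134 had differences of 1.88, 1.77 and 1.46 and were not called, with adjusted p values of 0.0139, 0.0293 and 0.0453. Scaling by total miRNA reads moved the median of all miRNAs in adrenal by 0.98, and all 6 members were then called higher. That count came with a shift of all miRNAs and is not read as a result about the members. miR-541 was at 0.74 with a pseudocount of 10 RPM and was then not called.

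**Figure D4:**
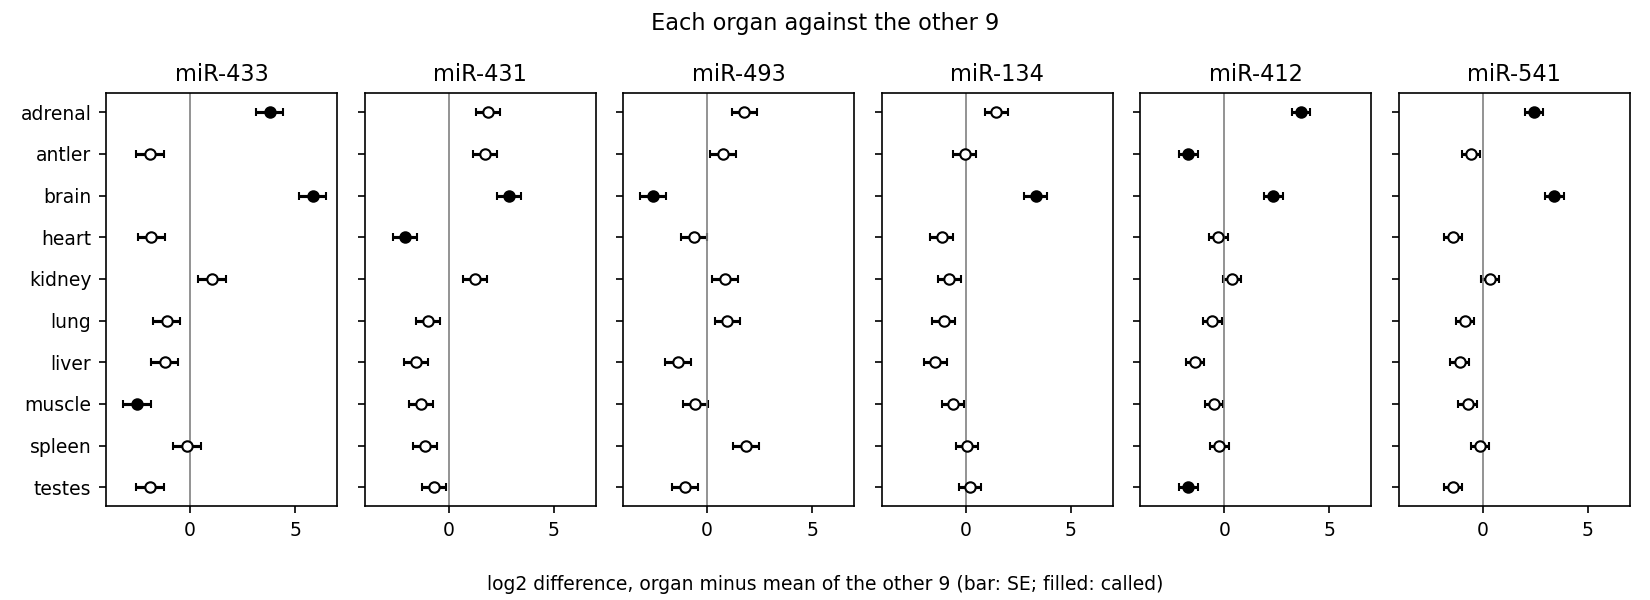
Log2 difference of each organ from the mean of the other 9 (horizontal axis) for the 6 tested members, with SE bars and filled points for calls. Brain and adrenal lie to the right for miR-433, miR-412 and miR-541, and brain lies to the left for miR-493 alone.

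The direct comparison of brain with adrenal called 1 member, miR-493, which was lower in brain (log2 difference -3.91, SE 0.82, adjusted p = 0.000353). Of all tested miRNAs 13.7% were lower in brain. miR-433 and miR-134 had differences of 1.84 and 1.69 and miR-412 had -1.19, and these missed the threshold (adjusted p = 0.104, 0.0679 and 0.120). This does not show that the levels of these members were alike. Without the juvenile brain miR-433 was also called.

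In 4 further organs 1 member each was lower. In muscle miR-433 fell (log2 difference -2.52, SE 0.65, adjusted p = 0.00183), where 12.9% of all tested miRNAs were lower. The size depended on the scaling, since total miRNA reads gave -6.44 and moved the median of all miRNAs in muscle by -3.60. Without the adult or the aged muscle the call was lost (-2.41 and -1.77). In heart miR-431 was lower (log2 difference -2.07, SE 0.57, adjusted p = 0.00368), where 14.5% were lower. This call was lost when any 1 of the heart libraries was left out (-2.18 to -1.86), and also without the stage as a replicate block, with no minimum of reads, with near-identical names merged and without antler.

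miR-412 had no read in antler and testes and was called lower in both (adjusted p = 0.00183 and 0.00295), where 22.6% and 12.9% of all tested miRNAs were lower. In antler 0 of 1825590 reads allow up to 1.64 RPM, and in testes 0 of 741783 reads allow up to 4.04 RPM. The median over all 40 libraries was 1.22 RPM, under both limits, so no size of a difference is given. Neither call was made by edgeR or DESeq2 on the reads, with a pseudocount of 10 RPM or with no minimum of reads. The call in antler was lost without the adolescence antler, and that in testes without the juvenile, adolescence or adult testes. Among the libraries that stood apart, leaving out the 3 also ended the call in testes. In antler miR-431 was higher by 1.72 and narrowly missed the threshold in limma (adjusted p = 0.0114). edgeR and DESeq2 each called 1 member in antler, which was not miR-412.

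With TMM scaling over all libraries limma called no member in kidney, lung, liver or spleen, where 16.1%, 12.9%, 21.0% and 4.84% of all tested miRNAs were called in either direction. At an unadjusted p below 0.05 there was 1 member in kidney, 0 in lung, 5 in liver and 1 in spleen, and of all tested miRNAs 29.0%, 30.6%, 50.8% and 24.2%. edgeR called 1 of these, miR-493 in spleen, and DESeq2 called it too, with miR-431 and miR-493 in liver. limma itself called 2 members in kidney, 1 in liver and 1 in spleen with scaling by total miRNA reads, and 1 in liver with total reads without miR-1 or without antler. Total miRNA reads moved the median of all miRNAs by 1.06 in kidney, 1.18 in liver and 0.53 in spleen. Total reads without miR-1 moved that of liver by 0.72. Calls under these scalings are thus not read as results about the members.

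Stage was compared over all organs in the same model. By the F test over 4 stages miR-493 was called (adjusted p = 0.00415), where 4.84% of all tested miRNAs were. miR-134 and miR-431 came next and were not called (adjusted p = 0.0160 and 0.0322). From juvenile to aged miR-493 fell by 2.34 on the log2 scale (SE 0.52, adjusted p = 0.00289), where 3.23% of all tested miRNAs were lower. The mean log2 level over organs was 4.65 in juvenile, 2.60 in adolescence, 2.42 in adult and 2.32 in aged libraries.

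The fall of miR-493 was uneven between organs. By RPM the aged library was below the juvenile one in 8 of 10 organs, though in brain the aged library had no read, which allows up to 3.25 RPM against 2.59 RPM. Kidney went from 121 to 15.2 RPM, lung from 85.1 to 9.59 RPM, heart from 6.97 to 1.10 RPM, and testes from 103 RPM to no read, which at that depth allows up to 71.7 RPM. Adrenal changed little (57.5 and 46.0 RPM), and antler (13.97 and 15.2 RPM) did not share the fall. Spleen went from 61.2 to 29.2 and 14.3 RPM, and stood at 62.3 RPM in the aged spleen, one of the libraries that stood apart. The same 3 deer gave all organs of a stage, so a difference between deer that spans organs would make these p values too small, and deer and stage cannot be told apart. The aged minus juvenile call was lost without kidney (log2 difference -2.09, adjusted p = 0.0129), lung (-2.29, 0.0104), muscle (-1.95, 0.0120) or testes (-1.72, 0.0114). The F test call was lost without any of these and also without heart (adjusted p = 0.0236). Without the adolescence lung, aged spleen and juvenile testes the difference was -2.27 (adjusted p = 0.00221), and the F test gave an adjusted p of 0.0060.

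miR-134 had a log2 difference of -1.68 (SE 0.46, adjusted p = 0.0114) between aged and juvenile libraries, which was not called. The aged value was the lower one in 9 of 10 organs, and the exception was spleen (5.88 and 9.58 RPM), through the aged spleen that stood apart. In heart and testes the aged value was 0 reads, which allow more than the juvenile level. The order also rests on few juvenile and aged reads in kidney (3 and 3), liver (2 and 1) and antler (1 and 0). The count of organs is thus weak. It was called without antler (adjusted p = 0.00951), without spleen (0.00292) or without the 3 libraries that stood apart (0.00662), and moved away from the threshold without testes (-1.16, adjusted p = 0.0501), without muscle (0.0375) or with no minimum of reads (0.0476). miR-433 had a log2 difference of -0.64 (adjusted p = 0.446), with the aged library lower in 7 organs and higher in 3 on the scaled axis. By RPM it was lower in 5 and higher in 5, where spleen (393 and 45.5 RPM) and testes (136.3 and 167 RPM) rest on libraries that stood apart.

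**Figure D5:**
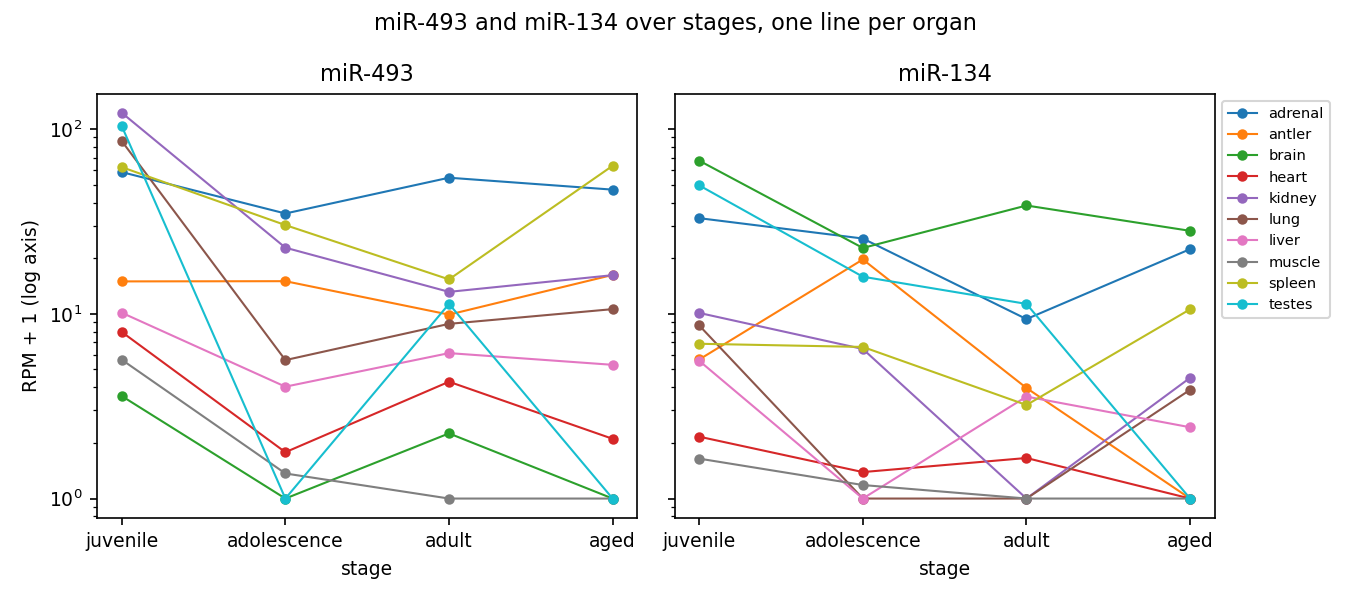
Levels of miR-493 and miR-134 (RPM + 1, log axis) at the 4 stages, with 1 line for each organ. Most lines start highest at the juvenile stage. Those of miR-493 in adrenal, in antler and, through the aged library that stood apart, in spleen end near where they began.

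The levels of the members were compared over the 40 libraries as a description. The median Pearson r over 15 pairs of tested members was 0.62, and 0.02 over 7626 pairs of all tested miRNAs. The contrast depended on the scaling, since total miRNA reads gave 0.62 for members and 0.36 for all pairs. The points share libraries and scaling, and miR-412, miR-541 and in part miR-134 entered through brain and adrenal, which by itself makes them vary together. The closest pair was miR-433 and miR-541 (r = 0.88), followed by miR-433 and miR-412 (0.80), and the least close was miR-433 and miR-493 (0.03). After organ means were removed the median was 0.46 for members and 0.08 for all pairs.

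Outside the group, the 5 known miRNAs most like the mean profile of the tested members, of 118 compared, were miR-409b (r = 0.94), miR-3957 (0.92), miR-409a (0.92), miR-760-3p (0.69) and miR-7 (0.58). miR-409a and miR-409b are of the same locus. miR-409b had a median of 58144 RPM in adrenal, against 2659 RPM for miR-433, and 8477 RPM in brain, against 5879 RPM, and miR-409a had 11894 and 2710 RPM. miR-3957 had 960 RPM in adrenal, 553 RPM in brain and 26.8 RPM over the other libraries. Of 5 imprinted miRNAs from other loci 3 were listed.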

How the data were processed

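The authors removed adapters and reads of other RNA classes, matched the rest to miRBase, predicted further miRNAs with miRDeep and deposited RPM values per library; the submitters' processing notes name CASAVA, bcl2fastq 1.8.4 and Bowtie. The genome build was not given in the sources used here. All 7982 values were whole multiples of 1 read, within 0.02 of a read, so reads were recovered. Tests took known miRNAs that reached 10 reads in 4 or more of the 40 libraries (118 and 6 members), and 31 names listed in antler alone were left out. limma 3.58.1 (R 4.3.3) was fitted to log2(RPM + 1), with TMM factors from edgeR 4.0.16, with organ and stage as terms and Benjamini-Hochberg adjustment over all tested miRNAs. Stage is a replicate block, since libraries of a stage share deer. Deviations from organ means had a median r of 0.12 between organs at the same stage and -0.05 at different stages. All tested members were named, with statistics for the largest rise and fall per comparison. Members, lists and tests were chosen with earlier results of these data known. Alternatives were other scalings and pseudocounts, read minimums, edgeR, DESeq2 1.42.0, merged names and left-out libraries. The limma and edgeR fits were tested on simulated data.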

Additional observations from a re-analysis of the deposited data

Results flagged for a closer look

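Of 50 groups of 4 libraries examined, 1 had a library far from the others, and chance alone gives about 1 in 20. This was miR-493 in the aged antler, at 15.2 RPM and 4.05 on the scaled log2 axis, where the other antler libraries lay between 3.55 and 3.57. It rested on 11 reads, against 3, 3 and 6 reads in the others.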

How the results depend on the processing

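None of the 15 called differences reversed under any of the alternatives run; of 224 values 193 kept the call and 31 lost it. Over the 10 organs there were 8 calls higher and 5 lower. This became 14 and 15 with total miRNA reads, 11 and 11 with total reads without miR-1, 12 and 3 with edgeR, 12 and 5 with DESeq2, 13 and 2 with no minimum of reads, and 3 and 2 with at least 50 reads in 4 libraries. Either total also moved the median of all tested miRNAs, by -3.60 and -1.13 in muscle and by 1.37 and 0.91 in testes. Counts under either total are thus not read as results about the members. In adrenal the 3 calls became 6 with either total and without antler, 5 with edgeR, DESeq2 or no minimum, and 1 with the minimum of 50 reads. In brain the 6 calls became 9 with no minimum, 5 with a pseudocount of 10 RPM and 2 with the minimum of 50 reads. Between brain and adrenal the 1 call became 2 with either total, a pseudocount of 10 RPM or no minimum, 3 with DESeq2 and 0 with the minimum of 50 reads, and leaving out 1 library gave 1 to 2. Under the minimum of 50 reads fewer members were tested, and with no minimum more were.

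Over stages the 1 call became 2 with DESeq2 and without the adolescence lung, aged spleen and juvenile testes, an alternative chosen after the data were seen. It became 0 with no minimum, with 50 reads and with no organ term. Leaving out 1 organ gave 0 to 2. For aged minus juvenile the 1 call became 2 without antler or without those 3 libraries, 0 with no minimum, 50 reads or no organ term, and 0 to 2 on leaving out 1 organ. Without the replicate block there were 8 calls higher and 4 lower, 6 in brain, 3 in adrenal and 1 between brain and adrenal; the call of miR-431 in heart was the one lost. Without miR-433 the median share of reads was 0.0350% in adrenal and 0.0232% in brain, in place of 0.301% and 0.615%.

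Depth limits what can be said of 21 members that could not be tested. One read in the aged testes is 23.9 RPM, above the level of most members in most organs.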
